A study of Mus musculus with 9 samples.

Results

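The 10 genes described here control how mouse spermatogonia differentiate and enter meiosis: Kit, Sohlh1, Sohlh2, Dmrt1, Dmrtb1, Stra8, Dazl, Ythdc2, Meioc and Ccnb3. They are taken from the table by name, with no value used in the rule. The members were, however, chosen with earlier results of these data known. Of the 10 names, 9 were found among the gene names of the expression table, in 10 of its 29660 distinct accessions. Meioc was found by its RefSeq accession, where the table carries the older name GM1564, and it is included below. The table holds 23159 genes in all, and 12585 of them had a mean level of at least 1 FPKM (mapped fragments per unit of transcript length and of library size).

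The table comes from testes of C57BL/6 mice at postnatal day 10, with 3 RNA-seq libraries of the genotype Lin28a knockout and 3 of the genotype wild type. The titles of the knockout libraries carry the tag cKO, and the labels name no driver of a deletion and do not say whether the libraries came from separate animals. Another 3 samples are LIN28A CLIP libraries, made from RNA recovered with that protein, and were not analysed here. The table gives 1 FPKM value per group, in a case-labelled column and a control-labelled column, so no spread between libraries stands beside any level and no n or SD is given. Case was read as the knockout and control as the wild type, from the column names alone.

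Lin28a, the targeted gene, went against that reading. It was at 23.4 FPKM in the case-labelled column and 8.82 FPKM in the control-labelled column. The authors' deposited table gives it q = 0.00191. All directions below therefore refer to the columns as labelled. Summed FPKM was 328508 in the case-labelled column and 325735 in the control-labelled column, and how deeply each library was sequenced is unknown. Of the 8 germ cell markers, 7 were at a mean FPKM of at least 1. In the case-labelled column 6 of these were lower, where 39.2% of all genes were lower. The median difference of the 7 markers was -0.20 on the log2(FPKM + 1) scale. They ranged from Sycp3, at 69.2 and 124.7 FPKM in case and control, to Ddx4, at 72.6 and 72.8, and Tdrd1, at 24.6 and 24.3 FPKM. Mast cells also carry KIT, and the 5 mast cell markers were all below 1 FPKM in both columns, the highest value being 0.837.

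Spermatogonia leave the undifferentiated state when retinoic acid acts on them, and they then begin to carry the receptor KIT on their surface. The transcription factors SOHLH1 and SOHLH2 promote this step, while DMRT1 holds spermatogonia in the mitotic programme and keeps Stra8 off until the time for meiosis. STRA8, induced by retinoic acid in germ cells made competent by the RNA-binding protein DAZL, switches on genes of meiotic prophase. MEIOC and YTHDC2 then act on RNA in the cytoplasm to end the mitotic programme. At postnatal day 10 the leading germ cells of the mouse testis are in early meiotic prophase, so spermatogonia and early spermatocytes are both present.

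The members were lower in the case-labelled column in 8 of 10 genes, and the size of the difference varied widely among them. Kit, Sohlh1, Sohlh2 and Dmrt1 each differed by less than 0.1 on the log2(FPKM + 1) scale. Dazl, Dmrtb1, Ythdc2, Stra8, Meioc and Ccnb3 were lower by 0.21 to 0.80, and all 6 lay below percentile 10 of the 12585 genes. None of the 9 members that the authors could test passed a q-value of 0.05 in the authors' deposited table, and 0.0514% of all tested rows did. At an unadjusted p under 0.05 there were 2 of 9, Ccnb3 and Meioc, both lower in the case-labelled column, where 1.28% of all tested rows were under that p, 0.631% under it and lower and 0.646% under it and higher.

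The median difference, case minus control on the log2(FPKM + 1) scale, was -0.21 over the 10 members and also -0.21 over the 9 found by name. Over the 12585 genes it was 0.03, with 39.2% of genes lower in the case-labelled column and a range of -0.16 to 0.21 between percentiles 10 and 90. The pseudocount of 1 makes these differences smaller than the true ratios for genes at low FPKM. Summed over the 10 members, the level was 535.7 FPKM in the case-labelled column and 598.8 FPKM in the control-labelled column, with Dazl and Dmrt1 as the highest contributors.

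**Figure D1:**
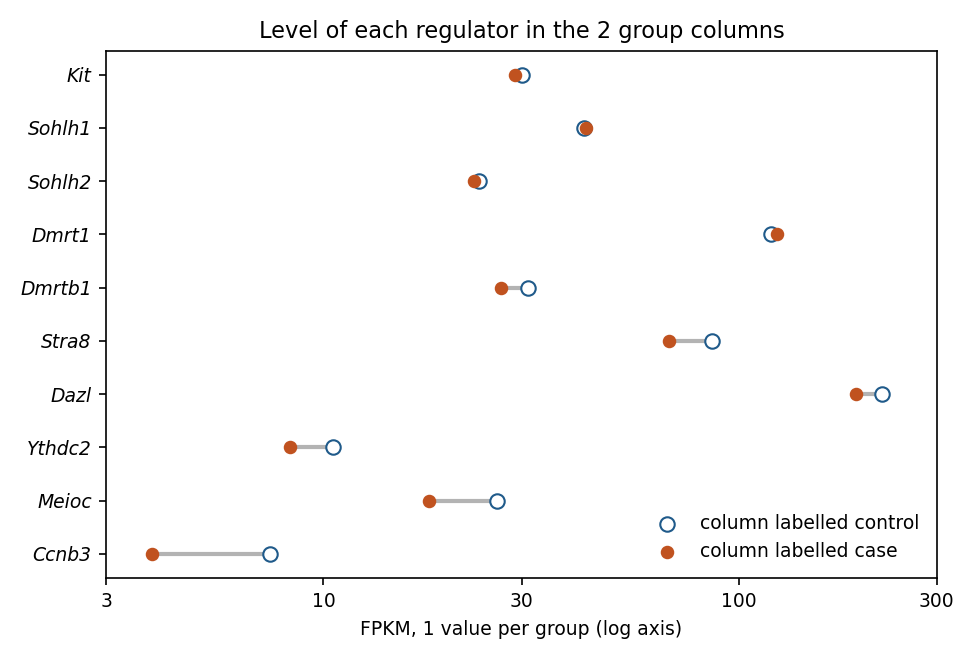
FPKM of each regulator (log axis) in the control-labelled column (open circles) and the case-labelled column (filled circles), 1 value per group with no error available. The circles of Kit, Sohlh1, Sohlh2 and Dmrt1 nearly coincide, and the gap is widest for Ccnb3, at 7.45 against 3.86 FPKM.

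The 250 bases before the start sites of Stra8, Meioc, Ccnb3 and Sohlh1 are shown, chosen after the values were seen. Whether these bases bear on the differences was not tested. The sequences are from RefSeq, build GRCm38.p6, each written 5′ to 3′ on the strand of its gene. The windows are Stra8 (chr6:34920698-34920947, plus strand), Meioc (chr11:102665335-102665584, plus strand), Ccnb3 (chrX:7041620-7041869, minus strand) and Sohlh1 (chr2:25847249-25847498, minus strand). Capitals mark matches on either strand to 5 motifs: CACGTG (an E-box, bound by basic helix-loop-helix proteins), AGGTCA (a half-site of nuclear receptors, the family of the retinoic acid receptors), CNCCTCAG (a motif described for STRA8 with its partner MEIOSIN), GCGGGAA (an E2F-type site) and CCAAT (the box bound by NF-Y).
Stra8: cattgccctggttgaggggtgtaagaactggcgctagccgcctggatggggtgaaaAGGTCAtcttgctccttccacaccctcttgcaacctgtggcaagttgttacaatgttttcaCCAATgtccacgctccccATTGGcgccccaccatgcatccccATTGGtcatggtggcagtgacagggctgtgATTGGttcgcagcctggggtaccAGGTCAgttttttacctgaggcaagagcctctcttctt
Meioc: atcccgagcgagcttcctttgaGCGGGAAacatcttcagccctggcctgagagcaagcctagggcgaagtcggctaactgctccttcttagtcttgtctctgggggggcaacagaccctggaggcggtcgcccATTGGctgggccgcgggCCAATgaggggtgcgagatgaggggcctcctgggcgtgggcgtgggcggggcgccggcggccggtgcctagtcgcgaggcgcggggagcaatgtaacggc
Ccnb3: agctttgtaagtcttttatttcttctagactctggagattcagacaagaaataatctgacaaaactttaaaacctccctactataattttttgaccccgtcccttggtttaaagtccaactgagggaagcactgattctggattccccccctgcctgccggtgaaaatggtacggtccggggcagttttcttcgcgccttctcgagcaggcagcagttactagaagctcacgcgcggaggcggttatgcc
Sohlh1: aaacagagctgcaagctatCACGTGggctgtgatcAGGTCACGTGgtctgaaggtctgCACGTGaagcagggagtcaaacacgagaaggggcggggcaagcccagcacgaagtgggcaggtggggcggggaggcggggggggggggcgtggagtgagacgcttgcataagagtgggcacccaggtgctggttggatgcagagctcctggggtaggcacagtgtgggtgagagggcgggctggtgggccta

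The Stra8 window held 2 AGGTCA matches, at 194 to 189 and 38 to 33 bases before the start, and 4 CCAAT matches. The Meioc window held 1 GCGGGAA match, 228 to 222 bases before the start, and 2 CCAAT matches. The Ccnb3 window held none of the 5 motifs. The Sohlh1 window held 3 CACGTG matches between 231 and 187 bases before the start, and 1 AGGTCA match that overlaps the middle one. Among 32851 promoters of the RefSeq table, cut to the same 250 bases, CACGTG was in 6.02%, AGGTCA in 14.0%, CNCCTCAG in 6.42%, GCGGGAA in 3.82% and CCAAT in 33.8%.

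Of the other members, Sohlh2 had 1 CNCCTCAG match, Dazl and Dmrtb1 had 1 CCAAT match each, and Kit had none of the 5. The entry used for Dmrtb1 starts 68 bases from the end of the gene in the expression table. Dmrt1 and Ythdc2 were not among the promoters used. A match is only a run of letters and says nothing of whether a protein binds there, and a window with no match says only that these letters are not in it.

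**Figure D2:**
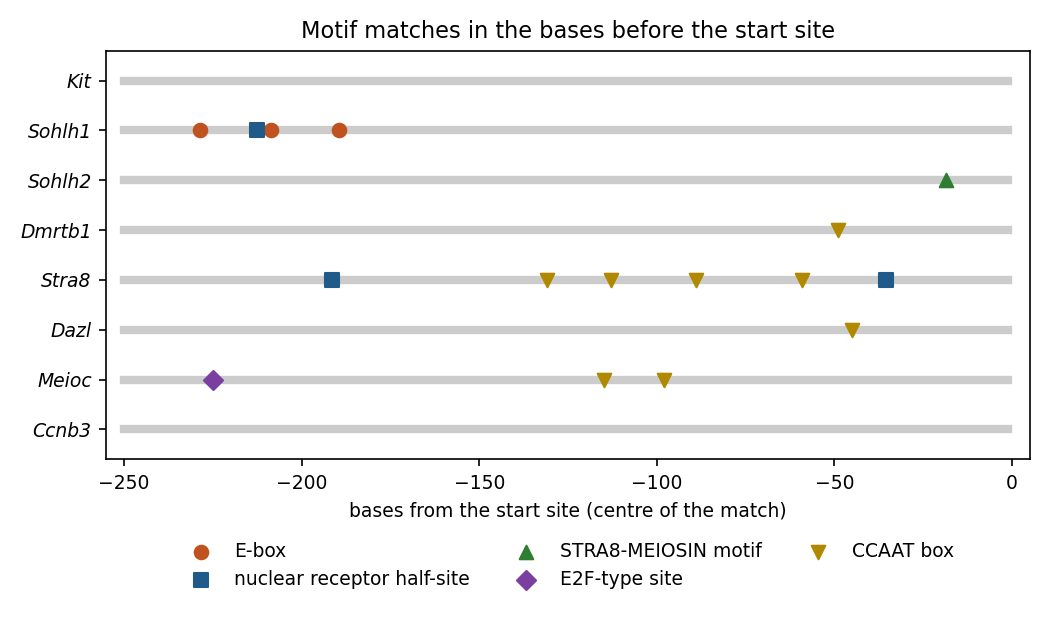
Position of each motif match (symbols, by motif) in the 250 bases before the start site of 8 regulators, in bases from the start. Stra8 carries 4 CCAAT boxes between its 2 nuclear receptor half-sites, and the Kit and Ccnb3 windows are empty.

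KIT, the receptor for stem cell factor and the surface marker of differentiating spermatogonia, was nearly equal in the columns. Kit (chromosome 5, 75574987 to 75656721, mm10 as in the table, as are all positions below) was at 29.0 FPKM in the case-labelled column and 30.05 FPKM in the control-labelled column, summed over its 2 rows. The row of NM_021099 was at 18.9 and 19.3 FPKM, and that of NM_001122733 at 10.1 and 10.7 FPKM. The second transcript thus made up 34.8% of Kit in the case-labelled column and 35.7% in the control-labelled column. Both rows have the status FAIL, so Kit has no usable p-value. Reads shared by 2 transcripts of 1 gene are divided by estimation, so the level of each row is less certain than their sum. Leydig cells carry KIT too, and the 7 Leydig cell markers summed to 332 and 255 FPKM in case and control. Their part in the level of Kit was not tested.

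Kitl encodes the ligand of KIT, which Sertoli cells present to spermatogonia. It was at 52.6 FPKM in the case-labelled column and 43.9 FPKM in the control-labelled column (p = 0.299 in the authors' deposited table). The ratio of Kit to Kitl was 0.552 and 0.685. Of 20 genes of KIT ligand and signalling, all at a mean FPKM of at least 1, 17 were higher in the case-labelled column, where 60.8% of all genes were higher, with a median difference of 0.09 beside 0.03 for all genes. None of the 17 with a p-value was under 0.05 in the authors' deposited table. Sos1, an exchange factor that activates RAS, was at 10.8 and 9.44 FPKM, and Ptpn11, a phosphatase that acts downstream of KIT, at 34.9 and 31.7 FPKM. Mtor, the kinase that drives growth through translation, was 1 of the 3 lower genes, at 20.4 and 23.0 FPKM.

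The basic helix-loop-helix factors of the spermatogonial programme showed the smallest differences of the set. Sohlh1 (NM_001001714, chromosome 2, 25842997 to 25847248) was at 42.8 FPKM in the case-labelled column and 42.4 FPKM in the control-labelled column (the authors' deposited table has p = 0.957). Sohlh2 (NM_028937, chromosome 3, 55182044 to 55209957), which pairs with SOHLH1, was at 23.1 and 23.7 FPKM (the authors' deposited table has p = 0.888). The ratio of Sohlh1 to Sohlh2 was 1.85 in the case-labelled column and 1.79 in the control-labelled column. The Sohlh1 difference was 0.01 on the log2(FPKM + 1) scale. It turned to -0.03 when the columns were rescaled by the median of the ratios of case to control, so it has no direction here.

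Of 17 other spermatogonial transcription factors, 15 were analysed. In the case-labelled column 7 were higher and 8 lower, where 39.2% of all genes were lower, with a median of -0.00. None of the 12 with a p-value was under 0.05 in the authors' deposited table. The 4 with the smallest p were all lower. Id2 and Id3, which encode inhibitors of helix-loop-helix factors, were at 38.7 and 51.9 FPKM and at 37.1 and 49.5 FPKM. Taf4b, a germ cell subunit of the general transcription machinery, was at 16.3 and 20.3 FPKM. Mybl1, a regulator of meiotic genes in spermatocytes, was at 4.41 and 6.01 FPKM. Meiosin, the partner of STRA8, was not analysed here.

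The DM domain factors had values on both sides of equality. Dmrt1 (NM_015826, chromosome 19, 25505706 to 25604328) was at 123.7 FPKM in the case-labelled column and 119.4 FPKM in the control-labelled column (the authors' deposited table has p = 0.833). It is made by Sertoli cells as well as germ cells, so its level sums both sources. Dmrtb1 (also called Dmrt6; NM_019872, chromosome 4, 107676290 to 107684162), which helps differentiating spermatogonia leave the spermatogonial programme, was at 26.8 and 31.1 FPKM, or 1.16-fold lower (the authors' deposited table has p = 0.432). The ratio of Dmrt1 to Dmrtb1 was 4.62 in the case-labelled column and 3.84 in the control-labelled column.

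Of the 8 other DM domain genes listed, 4 were at a mean FPKM of at least 1, and 2 of these were higher and 2 lower, none with p under 0.05 in the authors' deposited table. Dmrtc2, also called Dmrt7 and needed in spermatocytes at pachytene, was at 3.01 and 5.11 FPKM. Dmrtc1a was at 17.1 and 26.0 FPKM over 3 rows, and it has near-identical copies whose reads may be divided between them. Dmrt3 was at 2.41 and 1.87 FPKM and Dmrta1 at 30.5 and 29.8 FPKM. Their median of -0.27 over 4 genes became 0.03 over 7 genes with no filter on low values.

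Stra8, the retinoic acid target that starts the meiotic programme, was lower in the case-labelled column. Stra8 (NM_009292, chromosome 6, 34920960 to 34939342) was at 68.1 FPKM in that column and 86.3 FPKM in the control-labelled column, a 1.27-fold difference (the authors' deposited table has p = 0.164 and q = 0.999966). Its difference of -0.34 lay below that of all but 2.58% of genes. Beside it, the 7 germ cell markers analysed had a median difference of -0.20. The ratio of Stra8 to Kit was 2.35 and 2.87, and that of Stra8 to Dmrt1 0.550 and 0.723.

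Of 18 genes of retinoic acid supply and reception, 15 were analysed and 11 were higher in the case-labelled column, where 60.8% of all genes were higher, with a median of 0.09 beside 0.03 for all genes. None of the 13 with a p-value was under 0.05 in the authors' deposited table. Aldh1a2, a retinoic acid synthesis enzyme, was at 52.2 and 42.4 FPKM. Aldh1a1, an enzyme of the same family abundant in Sertoli cells, was at 502 and 435 FPKM. Cyp26a1, which degrades retinoic acid, was at 1.19 and 2.28 FPKM. Cyp26b1, of the same family, was far more abundant and near equality, at 46.7 and 44.7 FPKM. It was chosen after its values were seen.

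Among the RNA-binding members, Dazl was the most abundant gene of the set. DAZL binds mRNAs in germ cells and promotes their translation, and it is needed for germ cells to respond to retinoic acid. Dazl (NM_010021, chromosome 17, 50279394 to 50293599) was at 192 FPKM in the case-labelled column and 222 FPKM in the control-labelled column, or 1.15-fold lower (the authors' deposited table has p = 0.437). Its level exceeded that of 98.7% of genes. Boll, its relative of later germ cells, was at 14.4 and 19.7 FPKM over 2 rows, with p = 0.429 for the higher row in the authors' deposited table. The ratio of Dazl to Boll was 13.3 and 11.2.

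Ythdc2 and Meioc encode partners in a complex that binds mRNA and is required for germ cells to stay in meiosis, and both were lower in the case-labelled column. Ythdc2 (NM_001163013, chromosome 18, 44828665 to 44889720), an RNA helicase with a YTH domain, was at 8.32 and 10.6 FPKM, a 1.27-fold difference (the authors' deposited table has p = 0.194). Meioc (NM_001127576, chromosome 11, 102665588 to 102682237), its germ-cell-specific partner, was at 17.9 and 26.1 FPKM, a 1.46-fold difference. Its p was 0.0301 and its q was 0.999966 in the authors' deposited table. Only 128 of the 12585 genes had a lower difference than Meioc.

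RBM46 also works with this complex. Rbm46 was at 18.6 FPKM in the case-labelled column and 19.9 FPKM in the control-labelled column (the authors' deposited table has p = 0.741). The ratio of Meioc to Rbm46 was thus 0.965 and 1.31, and that of Ythdc2 to Rbm46 was 0.447 and 0.530. The ratio of Meioc to Ythdc2 was 2.16 and 2.47. Whether these ratios differ beyond the spread between libraries cannot be judged from 1 value per group.

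Of 18 genes of the DAZ family and RNA-binding partners, 16 were analysed. Of these, 10 were higher and 6 lower, where 60.8% of all genes were higher, with a median of 0.02. None of the 13 with a p-value was under 0.05 in the authors' deposited table. Mettl3, the catalytic subunit of the m6A writer, was at 15.1 and 13.6 FPKM, and Dzip1, a partner of DAZ proteins, at 3.09 and 2.80 FPKM.

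Ccnb3 showed the largest difference of the 10 members. Cyclin B3 is made in germ cells at the start of meiotic prophase. Ccnb3 (NM_183015, chromosome X, 6979652 to 7041619) was at 3.86 FPKM in the case-labelled column and 7.45 FPKM in the control-labelled column, a 1.93-fold difference. Its p was 0.00504 and its q was 0.999966 in the authors' deposited table. Its difference was -0.80 with a pseudocount of 1, -0.93 with 0.1 and -0.49 with 5. Only 49 of the 12585 genes had a lower difference, and among 536 genes of chromosome X, whose median difference was -0.00, 7 did.

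The mitotic B-type cyclins were near equality, with Ccnb1 at 12.4 and 11.6 FPKM and Ccnb2 at 31.2 and 29.4 FPKM in case and control. Ccnb3 relative to Ccnb1 was 0.311 in the case-labelled column and 0.645 in the control-labelled column, and relative to Ccnb2 it was 0.124 and 0.253. Of 24 other cyclin and cell cycle genes, 23 were analysed and 17 had higher values in the case-labelled column, where 60.8% of all genes did, with a median of 0.08. None of the 21 with a p-value was under 0.05 in the authors' deposited table. Cdk1, the kinase that B-type cyclins bind, was at 21.0 and 19.0 FPKM. Ccnd3, Ccna2, Ccnd2 and Cdk4 were at 28.4 and 23.6, 42.3 and 36.5, 33.7 and 29.6, and 133 and 119 FPKM. Among the 6 lower genes, Ccne2 was at 12.4 and 17.1 FPKM and Ccne1 at 5.55 and 6.61 FPKM. Ccne2 and Ccne1 were chosen after their values were seen.

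**Figure D3:**
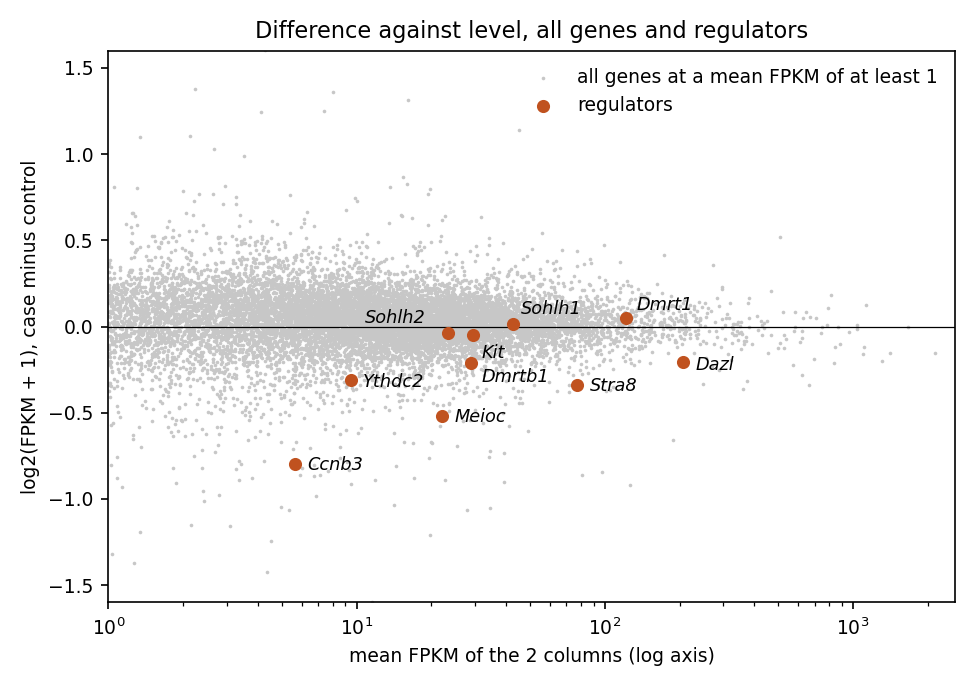
Difference of log2(FPKM + 1), case minus control, against mean FPKM (log axis) for 12585 genes (grey) and the 10 regulators (orange), with 14 genes beyond 1.6 in size not drawn. Kit, Sohlh1, Sohlh2 and Dmrt1 lie in the body of the genes, while Stra8, Meioc and Ccnb3 lie along its lower edge.

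The order of the members by level was nearly the same in both columns. From high to low in the control-labelled column it was Dazl, Dmrt1, Stra8, Sohlh1, Dmrtb1, Kit, Meioc, Sohlh2, Ythdc2 and Ccnb3. In the case-labelled column, Kit stood above Dmrtb1 and Sohlh2 above Meioc, and the rest kept their place. Sohlh2 and Meioc were at 23.1 and 17.9 FPKM in the case-labelled column and at 23.7 and 26.1 FPKM in the control-labelled column. No spread is available to say whether such neighbours differ.

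The genes listed here for early meiotic prophase were lower throughout. All 27 analysed genes of an early meiotic prophase list were lower in the case-labelled column, where 39.2% of all genes were lower, with a median of -0.62, beside -0.21 for the members and 0.03 for all genes. Of the 25 with a p-value, 10 were under 0.05 unadjusted, all lower, and 0 had a q under 0.05 in the authors' deposited table, where 0.631% of all tested rows were lower with p under 0.05. This list was written with its lower level in these data already known, so its direction is not independent evidence. Meiob, of meiotic recombination, was at 1.92 and 6.82 FPKM, and Tex101, a germ cell surface protein, at 87.0 and 165 FPKM. Hormad1 and Sycp2, of the meiotic chromosome axis, were at 15.6 and 29.8 FPKM and at 15.3 and 24.9 FPKM.

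Set against Sycp1, a synaptonemal complex gene at 38.5 and 59.1 FPKM, Meioc had a ratio of 0.466 in the case-labelled column and 0.442 in the control-labelled column. The ratio of Stra8 to Sycp1 was 1.77 and 1.46. Beside this 1 gene, the difference of Meioc was close in size and that of Stra8 was smaller. Differences within the early meiotic prophase list ran from -1.42 to -0.06 on the log2(FPKM + 1) scale. Another gene of the list would thus give another answer. Rec8, a meiotic cohesin, and Syce2, of the synaptonemal complex, stood closest to equality in the list, at 8.81 and 9.24 FPKM and at 82.9 and 89.3 FPKM. Sycp1, Rec8, Syce2, Ccnb1 and Ccnb2 were chosen after their values were seen.

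The spermatogonial lists differed less. Of 15 genes of undifferentiated spermatogonia, 9 had higher values and 6 lower ones, where 60.8% of all genes were higher. Their median was 0.04, and 0 had p under 0.05 in the authors' deposited table. Id4, which marks stem cells, was at 4.94 and 6.61 FPKM, Utf1 at 1.71 and 2.56, Bcl6b at 4.37 and 3.49, and Ret, the GDNF receptor kinase, at 8.59 and 8.32 FPKM. Of 18 other genes of differentiating spermatogonia, 7 were higher and 11 lower, where 39.2% of all genes were lower, with a median of -0.06. Of the 17 with a p-value, 1 was under 0.05, Prss50, a testis serine protease, at 22.2 and 47.0 FPKM (the authors' deposited table has q = 0.292). Elavl2 was at 10.0 and 13.1 FPKM, Esx1 at 18.0 and 23.3, and Stk31 at 26.3 and 31.9 FPKM.

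**Figure D4:**
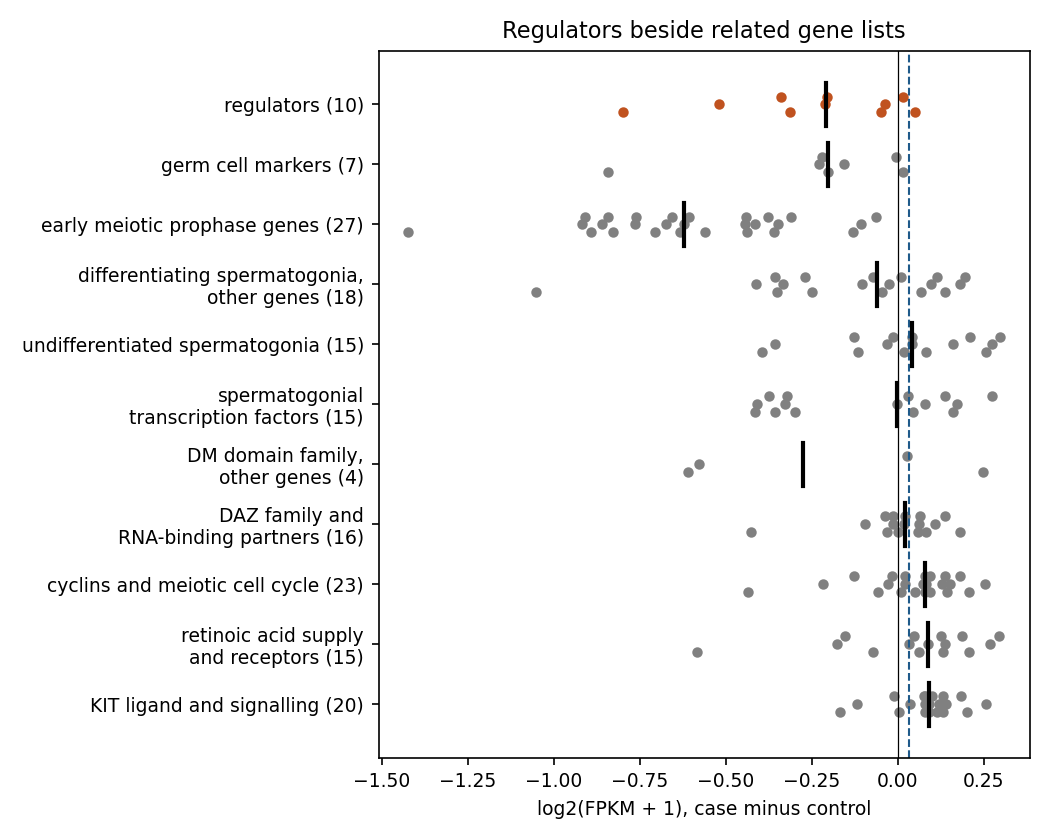
Difference of log2(FPKM + 1), case minus control, of each gene (points) in the 10 regulators and 10 lists, with list medians (black bars), the number of genes analysed in brackets, 0 (solid line) and the median of all genes, 0.03 (dashed line). The regulators spread from -0.80 to 0.05 and overlap the other lists. Their median of -0.21 lies between that of the early meiotic prophase genes and that of the KIT signalling genes. It is close to that of the germ cell markers, -0.20.

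Markers of germ cells and of other cell types differed between the columns too. Beside the median of -0.20 given above, the 8 germ cell markers summed to 329 FPKM in the case-labelled column and 407 FPKM in the control-labelled column. Most of that gap came from Sycp3, at 69.2 and 124.7 FPKM, which is also on the early meiotic prophase list. Ddx4 and Tdrd1 were near equality, at 72.6 and 72.8 FPKM and at 24.6 and 24.3 FPKM. All 7 Leydig cell markers were higher, as were all 8 peritubular and stromal markers, at 700.0 and 596 FPKM, and all 5 endothelial markers, at 30.6 and 25.8 FPKM. Sertoli cell markers were higher in 6 of 10 genes, at 717 and 706 FPKM, and macrophage markers in 1 of 5, at 45.7 and 60.3 FPKM. Of the 4 lower Sertoli cell markers, Rhox5, chosen after its values were seen, was at 8.90 and 19.3 FPKM. Beside these counts, 60.8% of all genes were higher in the case-labelled column, close to the share of the Sertoli cell markers. In whole testis, fewer cells of a type and less RNA per cell cannot be told apart. The part of these shifts in the differences of the members was not tested.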

How the data were processed

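Testis RNA was analysed from 3 knockout-labelled and 3 wild-type libraries. TopHat2 version 2.0.9 and build mm10 are named in the submitters' processing notes, and no source used here names the program that made the values. The deposited values are, per the file headers, FPKM in 1 column per group, with 1 row per RefSeq accession. Each row also has the authors' log2 ratio, test statistic (a score), status, p-value and q-value. The deposited log2 ratio is control over case. The q-values deposited by the authors were those of a Benjamini-Hochberg adjustment over 13629 rows with status OK, to within 2.26e-06. All 2896 rows with status FAIL carry a placeholder p-value and were treated as untested. No source used here says how the libraries were combined for the test, and if they are not separate animals its p-values measure only technical spread.

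Symbols were taken by accession from RefSeq (GRCm38.p6) for 29071 of 29660 accessions, and otherwise from the table. FPKM was summed over the rows of a gene, and log2(FPKM + 1), case minus control, was taken without a test. Calls are the authors' own, at q under 0.05 over the whole table. Lists and all genes were analysed at a mean FPKM of at least 1. Starts were read as counting from 0, since 13981 lay 1 below the RefSeq start, and 1 was added. No annotated gene overlapped a member.

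The members and lists were chosen with earlier results of these data known. Genes named were the members, Lin28a, the up to 4 genes of each list with the smallest p, partners of members, and others said to be chosen after their values were seen. Markers are named as values only. One gene that the rule names is not reported here. Ratios between genes and the windows printed were also chosen after values were seen. The summing and adjustment were checked on simulated data. Python 3.11.15, pandas 2.3.3, numpy 2.4.6 and matplotlib 3.10.9 were used. The alternatives tried were other pseudocounts, scalings, filters, row choices and thresholds.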

Additional observations from a re-analysis of the deposited data

How the results depend on the processing

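The median difference of the members lay between -0.25 and -0.19 under 9 alternatives, against -0.21. Among these, no filter repeats the main setting, since the members were not filtered by level. The filter at a mean FPKM of at least 5 removed no member, so it repeats the main setting too. The choice of the highest row could change only Kit, and the median stayed the same. Of 69 values of single members under alternatives, 67 moved by less than 0.1 on the log2 scale. The row choices and the filter cannot change the value of a member with 1 row, so those values agree by construction. The other 2 were those of Ccnb3 with pseudocounts of 0.1 and 5. In 2 the sign turned, both for Sohlh1, at -0.03 with median-of-ratios rescaling and -0.0017 with quantile normalization. Rescaling shifted all genes by 0.04. With only rows of status OK, Kit has no value. No member was called at a q under 0.10, or after adjusting the p-values again over 12712 rows at a mean FPKM of at least 1. An unadjusted p under 0.05 gave 2 in place of 0. Of 27 list medians under alternatives, 26 moved by less than 0.1, and that of the other DM domain genes went from -0.27 to 0.028 with no filter, as 3 more genes near 0 FPKM entered. Lin28a kept its direction under the 2 alternatives run. Leaving out each library was not run, since the table has no value per library. No paired analysis was possible because the libraries have no columns of their own. With the depth unknown, no interval is given.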

Other observations

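All 4 ID genes on the transcription factor list had lower values in the case-labelled column, where 39.2% of all genes were lower. They encode inhibitors of helix-loop-helix factors. Id1 was at 22.2 and 28.1 FPKM, Id2 at 38.7 and 51.9, Id3 at 37.1 and 49.5 and Id4 at 4.94 and 6.61 FPKM in case and control. None of the 4 had p under 0.05 in the authors' deposited table, where 1.28% of tested rows did. Of the helix-loop-helix factors themselves, Sohlh1 was at 42.8 and 42.4 FPKM, Tcf3, which encodes an E-protein, at 48.8 FPKM in both columns, and Neurog3 at 3.22 and 2.49 FPKM. These genes were chosen after their values were seen.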
